A study of Mus musculus with 6 samples.

Results

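The AP-1 and ATF transcription factors examined here are 10 genes chosen by name, namely Fos, Fosb, Fosl1, Fosl2, Jun, Junb, Jund, Atf3, Batf and Maff. They were chosen with earlier results of these data known. A gene was taken as measured where the array annotation gave it a probe set of its own, which held for 9 of the 10, out of 30748 gene symbols on the arrays. The 1 probe set for Junb was annotated to Prdx2 as well, so no value is attributed to Junb. All 9 measured genes lay above the dim level used as a filter and were among the 19092 genes tested.

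The study hybridised RNA of sorted Lineage- c-Kit+ Sca1+ bone marrow cells (LSK cells, the fraction that holds the blood stem cells) to 6 Affymetrix arrays. The knockout group was 3 samples from miR-21flox/flox:Mx1-Cre+ mice, in which the Mx1 promoter drives the Cre recombinase that removes miR-21. The control group was 3 samples from miR-21flox/flox:Mx1-Cre- littermates, which carry the floxed alleles without Cre. All mice were given pIpC, a double-stranded RNA analogue that induces interferon and so the Mx1 promoter, as 7 intraperitoneal injections of 250 µg each from an age of 4 to 6 weeks, and were used 4 weeks after it. The Mx1 promoter responds to interferon in many cell types, so deletion is not limited to the sorted cells, and effects of Cre itself cannot be told apart from those of the deletion. The titles call the samples biological replicates but do not say whether each was 1 mouse or a pool, so p-values measure the spread between these arrays. Sorting and handling times are not given in the sources used here.

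The microRNA that was deleted is short. Its main mature strand, mmu-miR-21a-5p, is listed by RefSeq at chr11:86584120-86584141 on the minus strand of GRCm38.p6 and is shown with its seed, bases 2 to 8, in capitals. The array has no probe set for it alone. The probe set that covers it together with its host gene Vmp1 ranged from 5.64 to 5.76 in knockout arrays and from 5.60 to 5.65 in control arrays, and does not check the deletion.
mmu-miR-21a-5p: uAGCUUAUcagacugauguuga

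AP-1 is a dimer of basic leucine zipper proteins. JUN proteins pair with each other or with FOS proteins, FOS proteins need a partner, and ATF, BATF and small MAF proteins form related dimers on similar DNA sites. Fos and Jun are immediate early genes, transcribed within minutes of a growth factor, cytokine or stress signal without new protein synthesis, and the handling of tissue for cell sorting is known to induce them. In human cells AP-1 is also known to act on the promoter of the miR-21 gene.

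Values are log2 signals, and each change is the knockout mean minus the control mean on that scale. Changes were tested with limma, with a Benjamini-Hochberg adjusted p over all genes tested and a threshold of 0.05. A value after ± is the SD of 3 arrays for a mean and limma's standard error (SE) for a change. Within a group the arrays correlated at 0.995 to 0.997 over all probe sets, and between groups at 0.987 to 0.991. Kit, which encodes the c-Kit receptor of the sort, had log2 values of 8.12 to 8.19 in knockout arrays and 8.55 to 8.68 in control arrays, and Ly6a, which encodes Sca-1, was not measured by a probe set of its own. Of 10 B and T cell markers with a probe set, Cd3d, Cd3g and Ms4a1 lay under the dim level of 1.92 and the other 7 above it, with Cd79b at 5.24 to 5.39 in knockout arrays and 5.02 to 5.07 in control arrays. The myeloid lineage marker Itgam had values of 5.12 to 5.20 in knockout arrays and 5.51 to 5.70 in control arrays. It was the only monocyte and macrophage marker that fell. Csf1r of the same list rose by 0.67, and Ccr2, with a control mean of only 1.83, rose by 1.16. Neutrophil markers differed between the groups, with 11 of 12 higher in the knockout and a summed linear signal of 695.0 to 753.1 in knockout arrays against 465.7 to 498.1 in control arrays. S100a8 had the highest change of them, 2.38, and the G-CSF receptor gene Csf3r, which fell by 0.34, the lowest. Ngp and Camp, genes of late neutrophil granules, averaged 6.93 and 6.69 in knockout arrays, against 5.67 and 5.70 in control arrays. Ly6g, a defining marker of mature neutrophils, rose as well (0.38, limma adjusted p = 0.0123) and had low values, of 2.41 to 2.76 in knockout arrays and 2.17 to 2.27 in control arrays. Of the other marker lists, 6 of 8 LSK markers fell and 2 rose, and 1 of 7 monocyte and macrophage markers fell and 2 rose. Of the remaining lists, 2 of 7 B and T cell markers and 1 of 3 erythroblast markers rose. Of all genes tested, 12.0% fell and 19.1% rose. Among neutrophil markers 91.7% rose and 8.33% fell, and among LSK markers 75.0% fell and 25.0% rose. The lists are short, and their counts are not read as results on cell types. The part of neutrophil transcripts in the results on AP-1 genes was not tested.

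The AP-1 genes did not move together. Among the 9 measured, 5 fell in the knockout, 0 rose and 4 did not pass, where 31.1% of all genes tested were called, 12.0% as lower and 19.1% as higher. The 5 were Fosl2, Atf3, Fosb, Maff and Fosl1, with changes of -1.53 to -0.27, and the 4 without a call were Fos, Jun, Jund and Batf. The median change of the 9 was -0.27, where that of all genes tested was 0.07. In 6 of the 9 every knockout value lay below every control value, which held for 17.1% of all genes tested, and in Batf alone every knockout value lay above (48.0% of all genes tested had no overlap in either direction). In this bulk RNA, fewer cells of a type and less RNA per cell cannot be told apart.

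**Figure D1:**
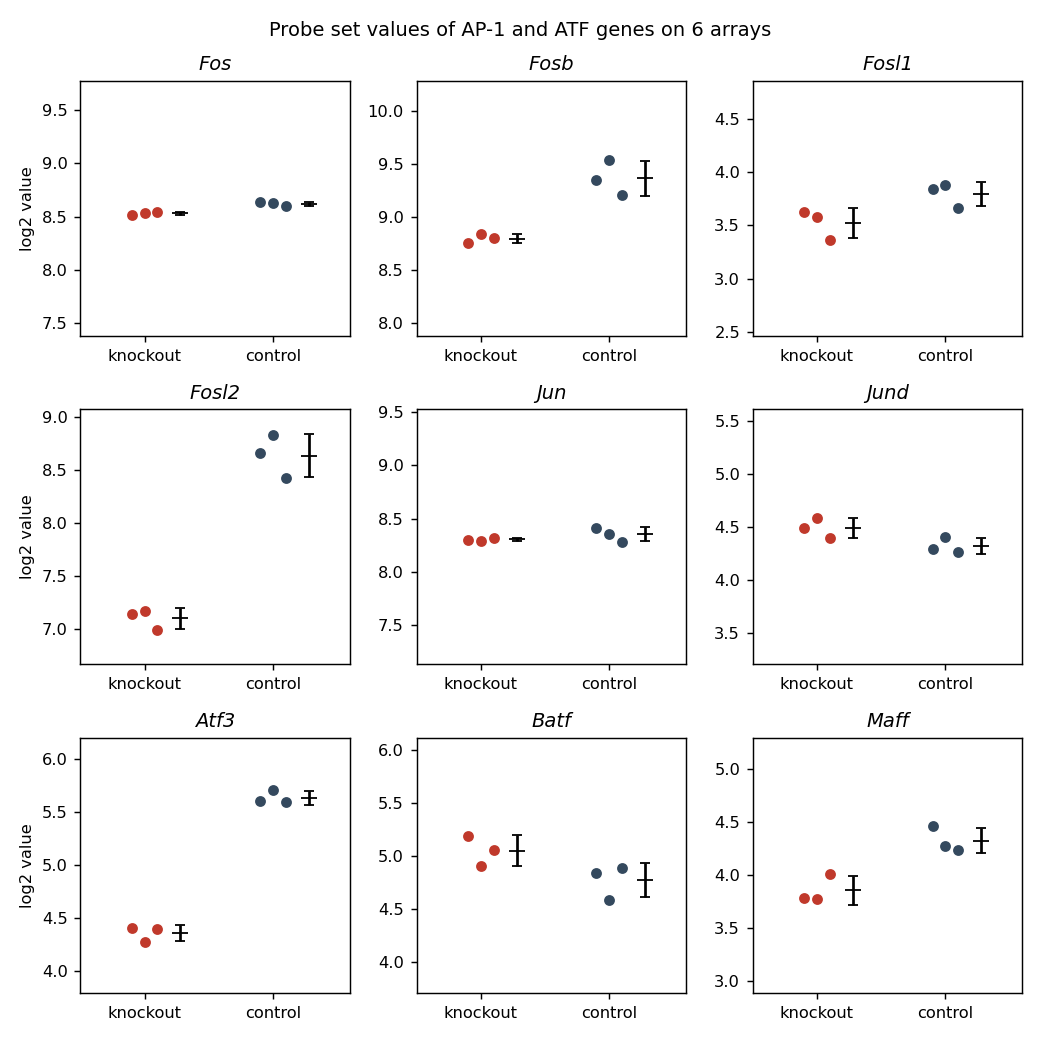
Log2 value (vertical axis) of each gene's probe set on the 3 knockout arrays (red) and the 3 control arrays (dark), with the mean and SD beside the points. Every panel spans the same number of log2 units, and the groups lie far apart for Fosl2 and Atf3 and close together for Fos and Jun.

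The FOS family held both the member with the largest change and one of the smallest. Fosl2, which encodes the late-acting FOS protein FRA-2, had log2 values of 7.14, 7.18 and 6.99 in the knockout arrays, against 8.66, 8.83 and 8.42 in the control arrays. The groups were far apart, with the highest knockout array more than a log2 unit under the lowest control array. Fosl2 fell by 1.53 ± 0.10 (SE, n = 3 each), which is 2.89-fold lower, with a limma adjusted p of 1.33e-05. Its change ranked 37 from the lowest among the 19092 genes tested.

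Fosb encodes a FOS protein that is induced with Fos and also exists as a long-lived truncated form. It had values of 8.75, 8.84 and 8.80 in the knockout arrays, against 9.35, 9.53 and 9.21 in the control arrays. The control arrays were all higher and more spread out than the knockout arrays. Fosb fell by 0.57 ± 0.08 (SE, n = 3 each, 1.48-fold lower, limma adjusted p = 0.00130).

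Fosl1 encodes FRA-1, a FOS protein without the transactivation domain of FOS. Its values were low, at 3.63, 3.58 and 3.36 in the knockout arrays and 3.84, 3.88 and 3.67 in the control arrays. The groups did not overlap, but the highest knockout and the lowest control array were close. Its fall of 0.27 ± 0.09 (SE, limma adjusted p = 0.0414) was lost without knockout replicate 2 (adjusted p = 0.0578), knockout replicate 3 (0.134), control replicate 1 (0.107) or control replicate 2 (0.118). It was also lost with no filter on dim genes, after a second quantile normalization and with array weights.

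Fos itself had values of 8.51, 8.54 and 8.54 in the knockout arrays, against 8.63, 8.62 and 8.60 in the control arrays. All knockout arrays were below all control arrays, by a small margin. The change was -0.09 ± 0.05 (SE, limma adjusted p = 0.240), with a 95% interval of -0.21 to 0.03. The SD of Fos was only 0.015 in the knockout and 0.018 in control. Its SE is wide beside these because limma also draws on the spread of all genes tested. After a second quantile normalization the change was -0.19 and passed, with an adjusted p of 0.0236.

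In the JUN family no gene was called. Jun, which encodes the main partner of FOS proteins, had values of 8.30, 8.29 and 8.32 in the knockout arrays and 8.41, 8.35 and 8.28 in the control arrays. These overlapped, since control replicate 3 was the lowest of the 6. The change was -0.05 ± 0.06 (SE, limma adjusted p = 0.568), with a 95% interval of -0.18 to 0.09. Jund, which encodes a JUN protein that many cells make without stimulation, had values of 4.50, 4.59 and 4.40 in the knockout arrays and 4.29, 4.41 and 4.26 in the control arrays. Those groups overlapped too, and the change was 0.17 ± 0.07 (SE, limma adjusted p = 0.0941). With the replicate number as a block Jund passed (limma adjusted p = 0.0401). The probe set annotated to both Junb and Prdx2 averaged 6.25 ± 0.15 in the knockout and 6.49 ± 0.04 in control (SD, n = 3 each), with no overlap. Its signal cannot be divided between an AP-1 gene and the peroxiredoxin gene Prdx2.

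Of the members outside both families, Atf3 changed most. Atf3 encodes a stress-induced factor that represses many genes as a homodimer. It had values of 4.41, 4.27 and 4.39 in the knockout arrays, against 5.60, 5.71 and 5.59 in the control arrays. The groups were separated by over a log2 unit, with little spread inside each. Atf3 fell by 1.27 ± 0.07 (SE, n = 3 each), which is 2.42-fold lower, with a limma adjusted p of 4.07e-06, the smallest of the 9.

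Maff encodes a small MAF protein, which lacks a transactivation domain and acts through its partners. Its values were 3.78, 3.77 and 4.01 in the knockout arrays and 4.46, 4.27 and 4.24 in the control arrays. The groups did not overlap, and Maff fell by 0.47 ± 0.09 (SE, n = 3 each, 1.38-fold lower, limma adjusted p = 0.00416). Batf encodes a small factor that pairs with JUN proteins and lacks a transactivation domain. It had 5.19, 4.90 and 5.05 in the knockout arrays and 4.84, 4.59 and 4.88 in the control arrays. All knockout arrays were above all control arrays by a narrow margin, and the change of 0.27 ± 0.10 (SE, limma adjusted p = 0.0611) did not pass. Without knockout replicate 2 it was 0.35 and passed, with an adjusted p of 0.0354. It also passed after a second quantile normalization, with array weights and with the replicate number as a block (limma adjusted p = 0.0105).

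**Figure D2:**
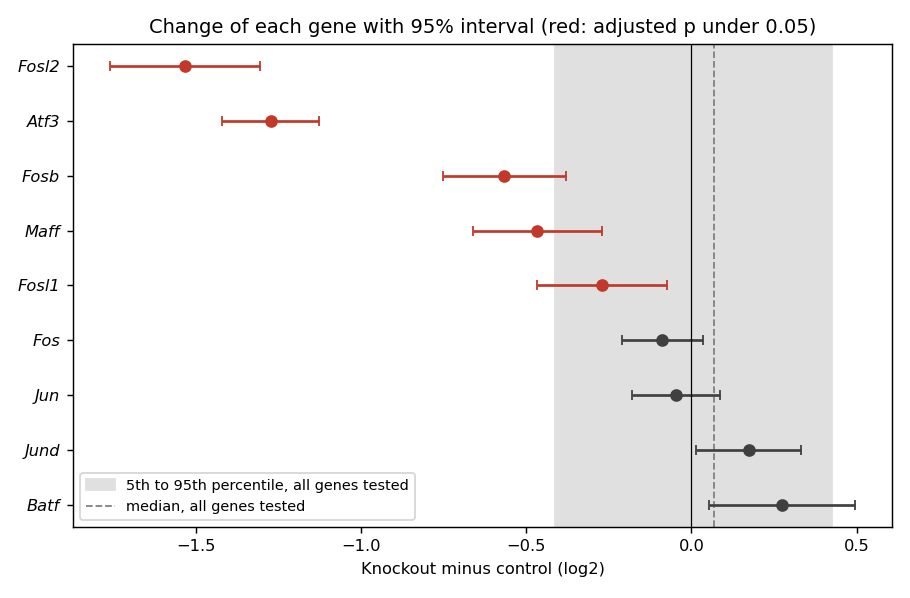
Change of each gene in log2 units (horizontal axis, knockout minus control) with its 95% interval from limma, in red where the adjusted p was under 0.05. The grey band spans the 5th to 95th percentile of all 19092 genes tested and the dashed line is their median of 0.07, and Fosl2 (-1.53) and Atf3 (-1.27) lie far outside the band.

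Spread within a group ran from an SD of 0.01, for Jun in the knockout, to 0.20, for Fosl2 in control. Fosl2, Fosb, Fosl1, Atf3 and Jund shared the order of their control arrays, with replicate 2 the highest and replicate 3 the lowest. The knockout arrays showed no such shared order in these genes.

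Fos and Jun, the genes best known as induced by handling, were then set against the others within each array. For this the value of Fos on an array was subtracted from every gene on that array before the limma fit, so that the test is of the difference between the changes, and likewise for Jun. Fos and Jun did not differ detectably from each other, with a difference of Jun minus Fos of 0.04 and a 95% interval of -0.09 to 0.17 (limma adjusted p = 0.551). Of the 8 other genes measured, 6 changed differently from Fos, where 48.2% of all genes tested did so. Of these, 4 lay below Fos, against 8.51% of all genes tested. The change of Atf3 minus that of Fos was -1.19 ± 0.07 (SE, limma adjusted p = 7.04e-06), and that of Fosl2 minus Fos was -1.45 ± 0.10 (SE, limma adjusted p = 1.97e-05). The same difference was -0.48 for Fosb and -0.38 for Maff. Batf and Jund lay above Fos, by 0.36 and 0.26 (limma adjusted p = 0.0201 and 0.0174). Lying above Fos was common, since 9193 of all genes tested changed differently from Fos and only 1625 of these lay below it.

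The call for Batf was lost without knockout replicate 1 (0.28, adjusted p = 0.0687) or control replicate 2 (0.27, adjusted p = 0.0601). That for Jund was lost without knockout replicate 1 (adjusted p = 0.0547), knockout replicate 2 (0.0515) or control replicate 1 (0.0517). Fosl1 minus Fos was -0.18 with an adjusted p of 0.105.

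Against Jun, 5 of the 8 other genes changed differently, where 31.2% of all genes tested did. The same 4 genes lay below Jun, against 9.10% of all genes tested, with differences of -1.49 for Fosl2, -1.23 for Atf3, -0.52 for Fosb and -0.42 for Maff. Batf lay 0.32 above Jun (limma adjusted p = 0.0431), and that call was lost without knockout replicate 1 (adjusted p = 0.148), knockout replicate 3 (0.0888), control replicate 1 (0.0839) or control replicate 2 (0.150). It was lost as well with no filter on dim genes (0.0542). Lying above Jun was common too, since 5957 of all genes tested changed differently from Jun and only 1737 of these lay below it. Jund minus Jun, at 0.22, and Fosl1 minus Jun, at -0.22, did not pass, with adjusted p of 0.0627 and 0.0751. Jund minus Jun passed with a stricter filter on dim genes (adjusted p = 0.0494) and after a second quantile normalization, where it was 0.37 (adjusted p = 0.00447). The 4 genes below Fos and Jun kept both calls in every alternative run.

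**Figure D3:**
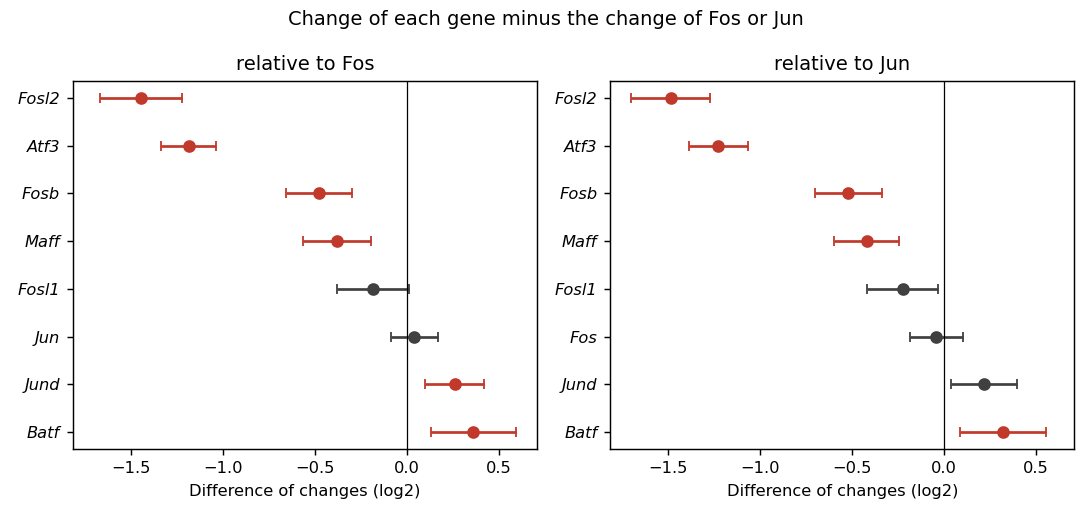
Change of each gene minus the change of Fos (left) or of Jun (right), in log2 units (horizontal axis), with 95% intervals and red points where the adjusted p was under 0.05. Fosl2, Atf3, Fosb and Maff lie below 0 in both panels, at -1.45, -1.19, -0.48 and -0.38 relative to Fos.

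Upstream sequences were compared because the 3 genes with the largest falls, Fosl2, Atf3 and Fosb, differ from Fos and Jun in their change. The 250 bases before each RefSeq start (GRCm38.p6) are shown 5′ to 3′ on the gene's strand, at chr5:32136222-32136471 (plus) for Fosl2, chr1:191183334-191183583 (minus) for Atf3, chr7:19310046-19310295 (minus) for Fosb, chr12:85473640-85473889 (plus) for Fos and chr4:95052223-95052472 (minus) for Jun. Capitals mark matches to any of the motifs listed after the sequences.
Fosl2: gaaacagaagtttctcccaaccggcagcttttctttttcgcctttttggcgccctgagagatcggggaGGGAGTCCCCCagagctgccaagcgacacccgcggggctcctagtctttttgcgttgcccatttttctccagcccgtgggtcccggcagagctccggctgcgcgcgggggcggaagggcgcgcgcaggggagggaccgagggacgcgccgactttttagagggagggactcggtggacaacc
Atf3: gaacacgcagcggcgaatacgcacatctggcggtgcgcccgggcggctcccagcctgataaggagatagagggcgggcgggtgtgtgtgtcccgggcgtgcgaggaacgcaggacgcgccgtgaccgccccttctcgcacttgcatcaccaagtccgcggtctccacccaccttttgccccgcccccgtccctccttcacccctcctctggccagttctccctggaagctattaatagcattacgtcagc
Fosb: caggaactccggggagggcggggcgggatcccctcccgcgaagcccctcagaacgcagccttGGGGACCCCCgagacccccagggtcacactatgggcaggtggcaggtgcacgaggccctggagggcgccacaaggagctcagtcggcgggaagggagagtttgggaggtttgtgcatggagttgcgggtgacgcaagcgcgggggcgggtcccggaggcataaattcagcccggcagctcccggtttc
Fos: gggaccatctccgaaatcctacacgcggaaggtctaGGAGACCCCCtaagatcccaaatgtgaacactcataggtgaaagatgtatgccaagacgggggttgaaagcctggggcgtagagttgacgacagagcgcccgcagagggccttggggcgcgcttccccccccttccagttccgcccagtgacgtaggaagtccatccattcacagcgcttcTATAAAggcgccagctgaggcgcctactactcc
Jun: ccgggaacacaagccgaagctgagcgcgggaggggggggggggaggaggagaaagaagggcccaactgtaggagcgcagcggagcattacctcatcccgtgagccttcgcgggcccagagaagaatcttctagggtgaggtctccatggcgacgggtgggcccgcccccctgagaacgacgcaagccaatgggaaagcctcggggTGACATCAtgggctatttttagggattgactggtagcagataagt

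The motifs, searched on both strands, were the AP-1 site TGANTCA, the cyclic AMP response element TGACGTCA, the site TGACATCA known from the Jun promoter, the TATA box TATAAA, the CArG box and the NF-kB site. In the same window they were found in 6.75%, 1.55%, 2.93%, 12.4%, 1.47% and 3.90% of 32851 promoters, in that order. None of the 5 windows held TGANTCA, TGACGTCA or a CArG box. The search covered only the bases of each window and only the motifs as spelled. Sites farther upstream and variant spellings were not tested, so a missing match does not mean that a gene lacks such a site. The Atf3 window, for example, held TTACGTCA, which has a T in place of the first G of TGACGTCA. The NF-kB site matched in Fosl2, where a pair of matches overlap each other, in Fosb and in Fos, but not in Atf3 or Jun. Fos held a TATA box that begins 33 bases before its start, and Jun held TGACATCA 45 bases before its start. The genes of these 5 with an NF-kB match were Fosl2 and Fosb, which fell, and Fos, which had no call. Maff, which also fell and has 3 RefSeq starts, held TGACGTCA 29 bases before one of them, and before another held TGACATCA, again at 45 bases as in Jun, and an NF-kB match. TGACATCA was found before Maff, which fell, and before Jun, which had no call. The windows of Jund and Batf, which had no call, held none of the motifs, and Fosl1 had no window among those searched. Whether any of these matches goes with a change was not tested. These matches describe letters and not bound sites.

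Other early genes that handling is known to induce were described next to the AP-1 genes. From a list of 41 without the AP-1 genes, 39 were tested. There were 18 that fell (46.2%, where 12.0% of all genes tested did), 3 that rose (7.69%, where 19.1% did) and 18 without a call. The median change of the list was -0.30. This list and those described below were chosen with earlier results of these data known, so their counts are not independent of them. The nuclear receptor genes Nr4a2 and Nr4a1 fell by 1.49 ± 0.06 and 1.10 ± 0.06 (SE, limma adjusted p = 1.20e-06 and 6.49e-06). The antiproliferative gene Btg1 fell by 1.24, and the metallothionein gene Mt1 rose by 1.04. Further examples were chosen after their values were seen. The zinc finger early gene Egr1 had values of 5.10, 5.17 and 5.20 in the knockout arrays, against 5.72, 5.60 and 5.43 in the control arrays. The groups did not overlap, and Egr1 fell by 0.42 (limma adjusted p = 0.00411). Ier2 at -0.16 (limma adjusted p = 0.0708) and Dusp1 at 0.23 (0.261) had no call. The heat shock genes Hspa1a, Hspa8, Hsp90aa1 and Dnajb1 had no call, with changes between -0.05 and -0.0005, while the chaperone gene Hsph1 fell by 0.68. Hspb1 at 0.0003 and Hspe1 at 0.11 had no call either. Values of Hspa1a were low, at 2.78 to 2.83 in knockout arrays and 2.80 to 2.83 in control arrays, beside a dim level of 1.92. Hspa1b and Dnaja1 of the list had no probe set of their own. The list thus held genes with changes of the size of Atf3 and genes as near to 0 as Jun.

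Genes listed as known AP-1 targets spread widely. The list of 40 had 28 tested genes, of which 13 fell (46.4%, where 12.0% of all genes tested did), 4 rose (14.3%, where 19.1% of all genes tested did) and 11 had no call, and the median change was -0.09. The list was written with earlier results of these data known, so its count is not independent of them. The matrix protein gene Thbs1 had values of 3.96, 3.84 and 3.65 in the knockout arrays, against 6.19, 5.98 and 6.07 in the control arrays, and fell by 2.27 ± 0.09 (SE, limma adjusted p = 1.22e-06). The growth factor gene Vegfa fell by 1.89, and the urokinase receptor gene Plaur fell by 1.64. The matrix protease genes Mmp14 and Mmp9, which the list also held, went the other way and rose by 0.93 and 0.47. The highest change of the list was that of Mt1, at 1.04. The lists share genes, since Mt1 and Mt2 were also in the list of handling-induced genes. Cebpb and Cebpd were in that list and in the list of other basic leucine zipper factors. Many genes in this list are known to answer to other factors too, NF-kB among them.

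Upstream of AP-1, 9 of the 28 kinases and activators tested fell (32.1%, where 12.0% of all genes tested did), 2 rose (7.14%, where 19.1% did) and 17 had no call, for a median change of -0.06. Mapk8, which encodes the JUN kinase JNK1, had values of 4.66, 4.43 and 4.51 in the knockout arrays, against 5.23, 5.09 and 5.18 in the control arrays, and fell by 0.63 ± 0.07 (SE, limma adjusted p = 3.61e-04). Map2k3, which activates p38 kinase, fell by 1.04 and Mapkapk2, a kinase downstream of p38, rose by 0.43. The ternary complex factor genes Elk1, Elk4 and Elk3, whose proteins act on the Fos promoter with SRF, fell by 0.40, 0.33 and 0.27. Srf itself was at 0.02 with no call. These transcript values say nothing of the activity of the kinases.

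Among 38 other basic leucine zipper factors tested, 10 fell, 7 rose and 21 had no call, and the median was -0.07. The 10 were 26.3% of the list, where 12.0% of all genes tested fell. The 7 were 18.4%, close to the 19.1% of all genes tested that rose. Hlf, a factor of blood stem cells, fell by 0.88 ± 0.06 (SE, limma adjusted p = 1.36e-05), and Bach1, which pairs with small MAF proteins, fell by 0.64. Mafk, a small MAF relative of Maff, had values of 6.00, 5.89 and 6.01 in the knockout arrays, against 6.62, 6.69 and 6.47 in the control arrays, and fell by 0.62. The myeloid factors Cebpe and Cebpa rose by 0.93 and 0.85 (limma adjusted p = 0.00131 and 6.41e-05), in the same arrays in which the neutrophil markers were higher. Among genes with ATF names, Atf1 fell by 0.39, Atf2 by 0.27 and Atf4 by 0.23, Atf6b rose by 0.29, and Atf5 at 0.23 and Atf6 at 0.11 had no call. Jdp2, a repressor of AP-1 sites, was at -0.12 with no call.

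**Figure D4:**
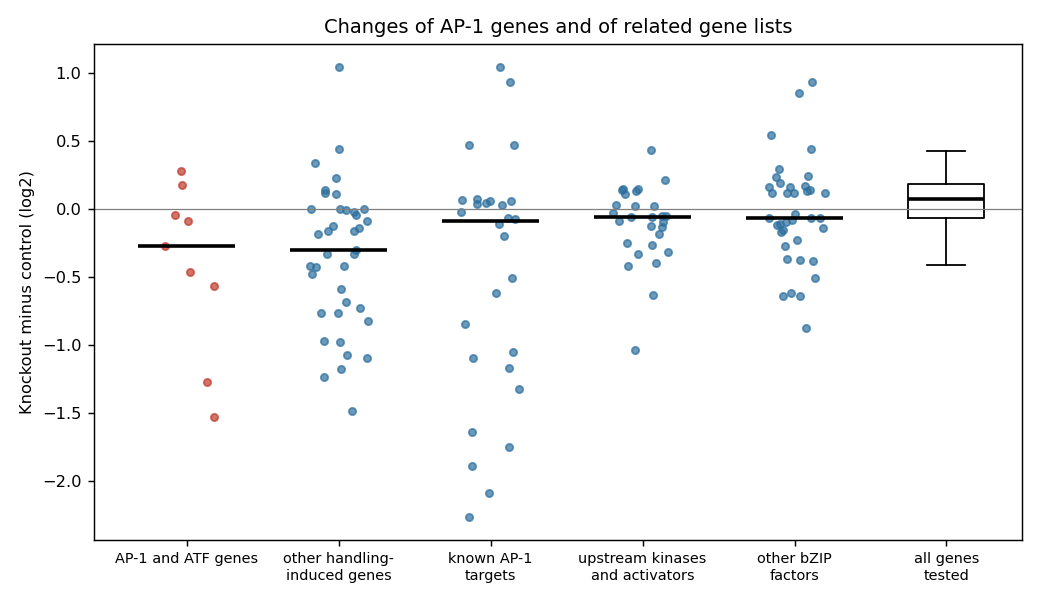
Change of each tested gene in log2 units (vertical axis, knockout minus control) for the 9 AP-1 and ATF genes and for 4 related lists, with black bars at the medians. The box at the right holds all 19092 genes tested (quartiles, whiskers at the 5th and 95th percentile). The medians were -0.27 for the AP-1 and ATF genes, -0.30, -0.09, -0.06 and -0.07 for the lists from left to right, and 0.07 for all genes.

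Genes with the most similar pattern over the 6 arrays were ranked by Pearson's r, which with 2 groups follows mainly the difference between them. For Fosl2 they were Samd11, Sf1, Kdm6b, Zc3h12a and Dusp16, with r of 0.9986 to 0.9995. Of these, the phosphatase gene Dusp16, which acts on JNK and p38, fell by 1.43. The histone demethylase gene Kdm6b fell by 1.33 and the ribonuclease gene Zc3h12a fell by 1.17. For Fos they were Insig1, Adcy9, Nr1d2, Lats2 and Klf4, with r of 0.9966 to 0.9985. All 5 of the genes nearest to Fos fell by more than Fos did, from 0.21 for Adcy9 to 0.77 for Klf4, so a like pattern did not mean a change of like size.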

How the data were processed

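The values are on a log2 scale as deposited by the authors, who made them with RMA, per the submitters' processing notes. RMA corrects background, equalises the intensity distributions of the arrays and summarises probes, so a shift shared by most transcripts is not seen. The base of the logarithm was read from the range of the values, since it, the genome build and the software version are not stated in the labels. No count lies behind an array value. The precision of a change came from the 3 arrays per group and, through the SE of limma, from the spread of all genes tested.

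Of 65956 probe sets, 31221 were annotated to 1 gene, 1529 to several and 33206 were not listed. Several names of 1 Entrez gene were taken as 1 gene where RefSeq (GRCm38.p6) lists them as synonyms, which concerned 617 probe sets. The brightest probe set stood for a gene, and 11656 genes with a mean under the median of all probe sets, 1.92, were left out. The fits used limma 3.58.1 in R 4.3.3 on all 6 arrays with group as the only term, and were tested on simulated data. Named genes were the 10 members, from each list the 3 smallest p and the highest and lowest change, from marker lists the highest and lowest change, and the 5 nearest patterns of Fos and of the member that changed most, and other names were chosen after their values were seen. The members and lists were chosen with earlier results of these data known. Alternatives covered filters, probe set averaging, scaling, weights, variance model, replicate block and leaving out each array.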

Additional observations from a re-analysis of the deposited data

How the results depend on the processing

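With 3 arrays per group, calls near the threshold depend on single arrays. Fosl2, Atf3, Fosb, Maff and Jun kept their direction and their side of the threshold in all 14 alternatives. Leaving out 1 array at a time gave changes of -1.64 to -1.44 for Fosl2, -1.30 to -1.23 for Atf3, -0.64 to -0.48 for Fosb, -0.55 to -0.40 for Maff, -0.34 to -0.19 for Fosl1 and 0.18 to 0.35 for Batf. It gave 4 to 5 members lower and 0 to 1 higher. Fosl1 lost its call with no filter on dim genes (-0.27, adjusted p = 0.0614), after a second quantile normalization (-0.24, adjusted p = 0.0605) and with array weights (-0.25, adjusted p = 0.0567). After a second quantile normalization Fos passed at -0.19 (adjusted p = 0.0236) and Batf at 0.31 (adjusted p = 0.0350), and with array weights Batf passed at 0.33 (adjusted p = 0.0234), so that 1 member was higher in each. Over all genes, 3650 were higher, and leaving out 1 array gave 2333 (without knockout replicate 3) to 3105. The cause of these shifts was not tested, apart from the loss of an array.

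With the replicate number as a block, Batf (0.27, adjusted p = 0.0105) and Jund (0.17, adjusted p = 0.0401) passed, so that 2 members were higher. Fosl1 differed from Fos (adjusted p = 0.0340) and from Jun (0.0409), and Jund differed from Jun (0.22, adjusted p = 0.0430). The block gave 7212 genes past the threshold, against 5945 without it. The deviations of same-numbered arrays from their group means correlated across genes at 0.219, 0.333 and 0.0999, all of them positive. Knockout replicate 3 correlated better with control replicate 1 (0.129) than with its own number. All other arrays of unlike number correlated negatively, at -0.277 to -0.0329. The titles do not say whether like numbers mark pairs, and the fits reported above did not take them as pairs. Of the 9 genes Fosl1 had the lowest signal, at a mean of 3.52 in the knockout and 3.80 in control.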
